A study of Mus musculus with 2 samples.

Results

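MHC class II molecules are the surface proteins with which macrophages, dendritic cells and B cells present peptides to CD4+ T cells, and the 10 genes described here encode their chains, the proteins that load them and their common transcriptional activator. An alpha and a beta chain (H2-Aa with H2-Ab1 for I-A, H2-Eb1 and H2-Eb2 as beta chains of the I-E type) assemble in the endoplasmic reticulum with the invariant chain, Cd74, which is cut in endosomes until a fragment is left in the groove. H2-DM (H2-DMa with H2-DMb1 or H2-DMb2) exchanges this fragment for peptide, and H2-O, to which H2-Oa belongs, restrains H2-DM. Ciita, the class II transactivator, does not bind DNA itself but joins RFX, CREB and NF-Y on the conserved boxes of these promoters, and interferon gamma is its best known inducer in macrophages. The genes were chosen by name as a known family, with their values in both libraries already seen, so that their values are a description and carry no test. All 10 were found, each on 1 line of the files, among 22886 genes.

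The series held 2 libraries of poly(A) RNA, 1 per condition, from sorted cells labelled aerobic of subcutaneous LLC tumors, a Lewis lung carcinoma grown under the skin, in wild type C57BL/6 mice. The vehicle library came from mice given a vehicle injection. The clodronate library came from mice given a clodronate injection, a drug used to remove phagocytes. Both conditions shared strain, genotype and tumor, while ages, numbers of mice and the markers of the sort were not given in the sources used here, and 1 label names a blood progenitor cell line (EML) that conflicts with the others.

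The deposited values are RPKM, which scale reads to transcript length and library size, and levels of different genes are therefore compared per length. Low values lay on steps of single reads, from which the vehicle library was estimated at 13800000 reads and the clodronate library at 11200000 reads. Log2 ratios compare clodronate with vehicle after 1 RPKM was added to each, and are below 0 where the clodronate library is lower. With 1 library per condition there was no replicate check, and the intervals given below are exact 95% intervals (Clopper-Pearson) of the reads, which cover counting error only and not the spread between mice, sorts or preparations. Of the 12 macrophage markers 12 were found above the minimum of 1 RPKM in the mean of both libraries. Their summed level was 21790 RPKM with vehicle and 21430 RPKM with clodronate, of which Lyz2 alone had 10534 and 11189 RPKM. Their median log2 ratio was 0.078, with 9 higher and 3 lower, where 51.6% of the genes kept were higher. Single markers ranged from -0.96 to 0.88, so the sum does not show that each was unchanged. In such bulk samples, fewer cells of a type and less RNA per cell cannot be told apart.

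Class II promoters are known for an X box, bound by RFX, and a Y box, an inverted CCAAT sequence bound by NF-Y downstream of it. RefSeq promoter windows on GRCm38.p6, from 250 bases before to 50 bases after the annotated start, were matched for 7 of the 10 members and for H2-Ob, the partner of H2-Oa. They are shown from the X to the Y box because these boxes hold the proteins that recruit Ciita. Capitals mark the letters GNAAC within the X box and TGATTGG within the Y box, 5′ to 3′ on the strand of the gene. Both motifs were chosen after these sequences were seen.
H2-Aa: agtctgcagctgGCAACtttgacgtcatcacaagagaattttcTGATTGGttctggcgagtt
H2-Eb1: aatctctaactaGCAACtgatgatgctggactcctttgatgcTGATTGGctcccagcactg
H2-Eb2: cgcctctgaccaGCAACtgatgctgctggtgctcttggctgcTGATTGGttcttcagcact
H2-DMb1: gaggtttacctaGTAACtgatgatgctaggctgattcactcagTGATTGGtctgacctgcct
H2-DMb2: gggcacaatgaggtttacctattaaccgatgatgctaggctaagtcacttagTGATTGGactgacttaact
H2-Oa: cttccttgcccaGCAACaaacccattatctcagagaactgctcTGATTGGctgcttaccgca
H2-Ob: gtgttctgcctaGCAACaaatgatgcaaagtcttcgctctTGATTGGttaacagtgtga

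The stretch of H2-Aa lies at chr17:34287855-34287916 on the minus strand. The others are on the plus strand, that of H2-Eb1 at chr17:34305764-34305824, H2-Eb2 at chr17:34325531-34325591, H2-DMb1 at chr17:34153085-34153146, H2-DMb2 at chr17:34145105-34145175, H2-Oa at chr17:34092291-34092352 and H2-Ob at chr17:34238806-34238864. The Y motif began between 45 and 102 bases before the annotated start in these genes. The X motif began 30 or 31 bases before the Y motif in the 5 members that had both, and 28 bases before it in H2-Ob. H2-DMb2 had the Y motif without GNAAC, and neither of the windows of H2-DMa had the Y motif. Of all 32851 promoter windows, 3.64% held the Y motif before the start on the gene strand and 0.496% held both motifs with the X motif 20 to 60 bases ahead, against 7.82% with the Y motif anywhere on either strand and 0.977% with the spaced motifs on either strand. The motifs do not overlap each other at this spacing. Of the members with both motifs, H2-Aa, H2-Eb1 and H2-DMb1 had lower RPKM in the clodronate library. H2-Oa and H2-Eb2 had higher RPKM there, but they rest on few estimated reads. These were 0 with vehicle and 21 with clodronate for H2-Oa, and 2 and 18 for H2-Eb2, so nothing is read from their direction.

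The chains of I-A, the class II molecule of this strain, had the largest drops of the members that averaged 5 RPKM or more. H2-DMb2, at a lower level, was at 0.385 of its vehicle level. H2-Aa, the alpha chain, had 3283 RPKM with vehicle and 1027 RPKM with clodronate, 3.20-fold lower (counting interval 3.13 to 3.27, from 41261 and 10530 estimated reads). H2-Ab1, the beta chain, had 1865 and 849 RPKM, so that the clodronate level was 0.455 of the vehicle level (0.444 to 0.466). Both chains remained among the abundant transcripts, at rank 22 and 46 of 10982 genes in the vehicle library and at rank 92 and 108 in the clodronate library. H2-Aa was 1.76 times the level of H2-Ab1 in the vehicle library and 1.21 times in the clodronate library, so that the chains stood closer to each other in the latter.

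H2-Eb1, the beta chain of I-E, had 481 and 328 RPKM, 1.46-fold lower (1.42 to 1.51), a smaller drop than that of either I-A chain. Its level rose from 14.6% to 32.0% of that of H2-Aa between the vehicle and the clodronate library. H2-Ea-ps, the gene of its alpha chain partner, which is inactive in C57BL/6 mice, was listed at 0 in both libraries. H2-Eb2, a beta chain gene next to H2-Eb1, had 0.0457 and 0.504 RPKM, which rest on 2 and 18 estimated reads. Its ratio of 11.0 has a counting interval from 2.64 to 98.0, and its level is far below the other beta chains in both libraries.

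Cd74, the invariant chain, did not share this drop. It had 6290 RPKM with vehicle and 6752 RPKM with clodronate, rank 5 and 6 of the genes kept, with a log2 ratio of 0.10. The difference in log2 ratio between Cd74 and H2-Aa was 1.78. Within the vehicle library the 4 classical chains together came to 89.5% of the RPKM of Cd74, and within the clodronate library to 32.6%. H2-Aa alone was at 52.2% and 15.2% of Cd74, H2-Ab1 at 29.6% and 12.6%, and H2-Eb1 at 7.64% and 4.86%. These shares are taken within a library and do not depend on how the libraries were scaled.

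**Figure D1:**
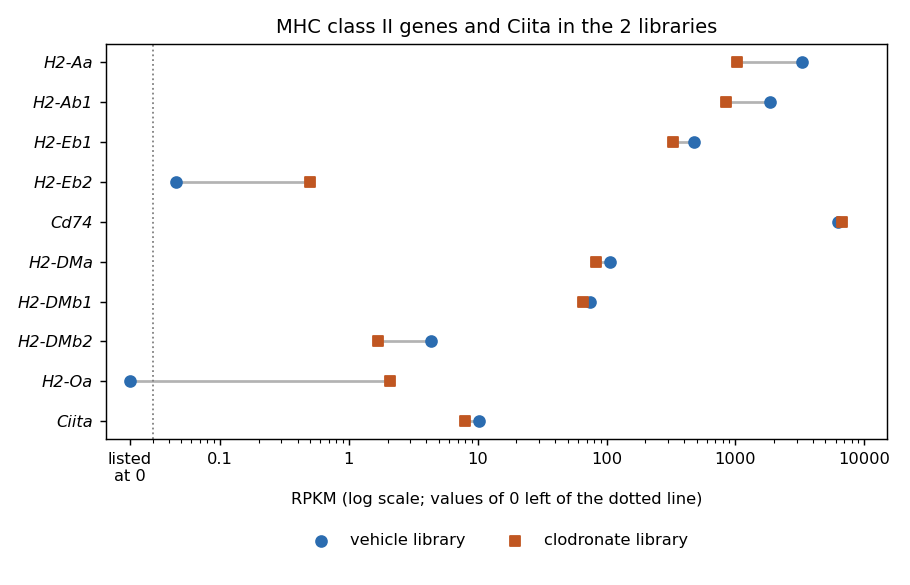
RPKM on a log scale for each of the 10 genes, with a circle for the vehicle and a square for the clodronate library, 1 library each, and values of 0 left of the dotted line. H2-Aa moves from 3283 to 1027 RPKM while Cd74 stays between 6290 and 6752 RPKM.

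**Figure D2:**
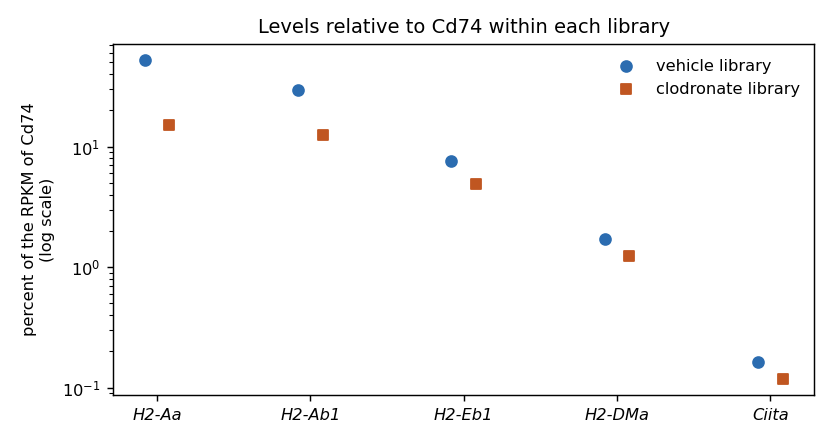
Level of 5 genes as a percentage of the RPKM of Cd74 in the same library, on a log scale, with a circle for the vehicle and a square for the clodronate library. The gap between the libraries is widest for H2-Aa, at 52.2% and 15.2%.

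The genes of peptide editing were lower by less than the I-A chains, apart from H2-DMb2 and H2-Oa at low levels. H2-DMa, the alpha chain of H2-DM, had 107 RPKM with vehicle and 83.2 RPKM with clodronate, 0.777 of the vehicle level (0.725 to 0.832). H2-DMb1, its main beta chain, had 74.7 and 66.0 RPKM, 1.13-fold lower (1.04 to 1.24). The alpha and the beta chain of H2-DM thus kept similar proportions, with H2-DMa at 1.44 times H2-DMb1 in the vehicle and 1.26 times in the clodronate library. H2-DMb2, the second beta chain gene, had 4.36 and 1.68 RPKM from 70 and 22 reads, 0.385 of the vehicle level (0.227 to 0.629). The transcripts of H2-DMb1 and H2-DMb2 are related, and 26.8% of the stretches of 50 bases in that of H2-DMb2 occur letter for letter in that of H2-DMb1, so that the division of reads between them is uncertain.

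H2-Oa, the alpha chain of H2-O, had no reads listed in the vehicle library (RPKM of 0) and 2.10 RPKM, about 21 reads, with clodronate. H2-Oa passed the minimum mean of 1 RPKM only through the clodronate library, so it could not pass without differing. The files give H2-Oa the same coordinates as BC051537, listed at 0 in both, and 21.7% of the stretches of 50 bases in the H2-Oa transcript occur in BC051537 as well. An exact 0 is not read as absence, since 178 of 18287 loci were listed at 0 in the vehicle library with at least 20 estimated reads in the clodronate library, and 192 the other way round. H2-Ob, its beta chain partner and not a member, had 7.21 and 3.89 RPKM from 245 and 108 reads, 1.85-fold lower (1.47 to 2.34), in the opposite direction.

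Ciita had 10.3 RPKM with vehicle and 7.99 RPKM with clodronate, 1.29-fold lower, with a log2 ratio of -0.33. Its locus holds 3 RefSeq transcripts, so no number of reads was estimated for it. Ciita and H2-DMa were both at 0.777 of their vehicle level, a smaller drop than those of H2-Aa and H2-Ab1. The order of Ciita and H2-Eb1 depended on the processing, with log2 ratios of -0.33 and -0.55 as deposited and of -0.61 and -0.48 with GC content and length corrected. Ciita was at 0.163% of the level of Cd74 in the vehicle library and at 0.118% in the clodronate library.

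Over the family, 7 of the 10 genes were lower and 3 higher in the clodronate library. Of the 9 genes above 1 RPKM in the mean, H2-Aa was at least 3-fold lower, where 2.32% of the 10982 genes kept were, and H2-Oa was at least 3-fold higher, where 2.86% were. H2-Aa, H2-Ab1 and H2-DMb2 were at least 2-fold lower, where 6.77% of genes were, although H2-DMb2 lay just past that threshold. By any amount, 7 of the 9 were lower, against 48.4% of the genes kept. Since the family was chosen with these values seen, nothing is read from its counts. The median log2 ratio was -0.36 over the 9 genes and -0.34 over all 10, and 0.019 over the genes kept. The summed level of the 10 genes was 12115 RPKM with vehicle and 9117 RPKM with clodronate, or 2.01% and 1.53% of all RPKM, and that of the 4 classical chains was 5629 and 2204 RPKM.

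Of the 93 genes that averaged 1000 RPKM or more, 1 had a lower log2 ratio than H2-Aa and 5 had a lower one than H2-Ab1, while 7 in all were at least 2-fold lower. The gene below H2-Aa was Mir1a-2, a microRNA gene listed at 0 with clodronate, and those below H2-Ab1 included Mir1a-2, H2-Aa, the small nucleolar RNA gene Snora75 and the ribosomal protein gene Rpl39, named after their values were seen. Cd74 stood in the upper part of these genes, with 68 of the 93 below it. Of the genes that averaged 100 RPKM or more, those with log2 ratios nearest to that of H2-Aa, at -1.68, were Znrd1 at -1.80, Abracl at -1.51 and Il1b, an inflammatory cytokine gene, at -1.51. With 2 libraries this likeness rests on 1 ratio per gene.

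**Figure D3:**
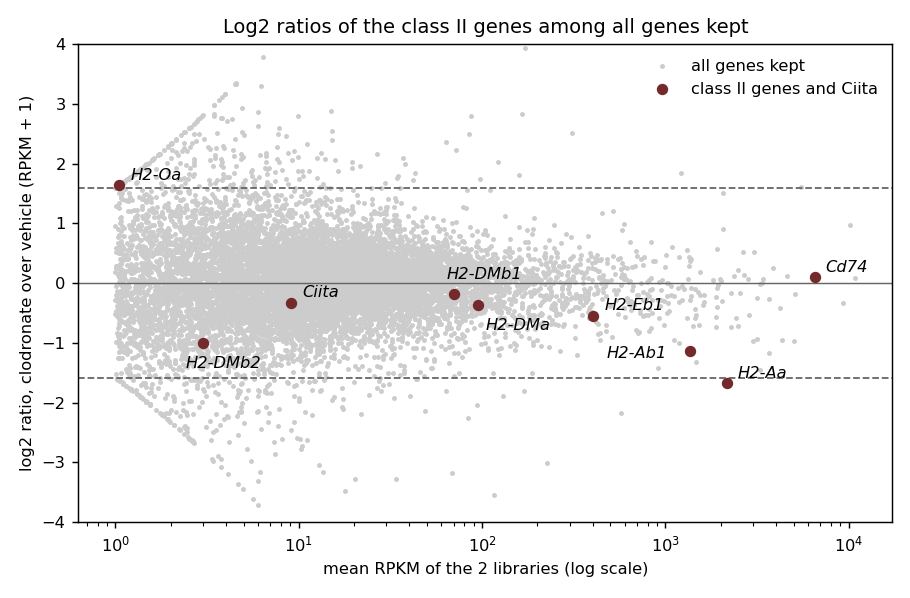
Log2 ratio of clodronate over vehicle (RPKM + 1) against the mean RPKM of the 2 libraries on a log scale, with all genes kept in grey, the 9 class II genes above 1 RPKM dark, and dashed lines at 3-fold. H2-Aa and H2-Ab1 lie at the lower edge of the genes of their level and Cd74 lies near 0, and 52 genes beyond a log2 ratio of 4 in either direction are not drawn.

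The class II genes other than Cd74 and Ciita stand together on chromosome 17. In the coordinates of the files (mm9), H2-Oa is at chr17:34220787-34232254, H2-DMa at chr17:34259776-34276046, H2-DMb2 at chr17:34282360-34288040, H2-DMb1 at chr17:34290135-34297174, H2-Ab1 at chr17:34400171-34406363, H2-Aa at chr17:34419695-34424716, H2-Eb1 at chr17:34442811-34453619 and H2-Eb2 at chr17:34462619-34478355. Ciita is on chromosome 16 and Cd74 on chromosome 18. From H2-Oa to H2-Ea-ps the files hold 16 loci within 261 kb, 8 of them members. The region did not move as a block. Between H2-DMb1 and H2-Ob lie Psmb9, Tap1, Psmb8 and Tap2, whose products cut and carry peptides for class I molecules, and all 4 were higher with clodronate, at log2 ratios of 0.49, 0.65, 0.46 and 0.21. Tap1 had 21.3 RPKM with vehicle and 34.0 RPKM with clodronate, and Psmb8 had 49.6 and 68.6 RPKM. Of the genes after them, H2-Ob, H2-Ab1, H2-Aa and H2-Eb1 were lower, whereas H2-Eb2, on few estimated reads, was higher.

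**Figure D4:**
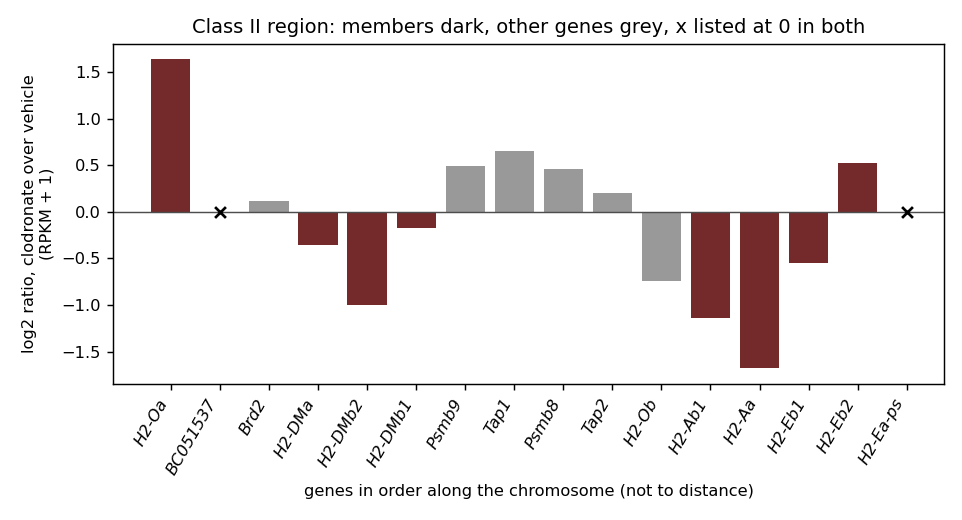
Log2 ratio of clodronate over vehicle (RPKM + 1) for the 16 loci of the class II region in their order along the chromosome, class II members dark, other genes grey, and crosses for loci listed at 0 in both libraries. The grey bars of Psmb9, Tap1, Psmb8 and Tap2 point up, between those of H2-DMb1 and H2-Ob, which point down. The bars of the members H2-Oa and H2-Eb2, which rest on few estimated reads, also point up.

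MHC class I molecules serve CD8+ T cells, and the list holds their chains and genes of peptide supply, loading and regulation. Of the 11 found of 12 listed, 8 were higher and 3 lower, where 51.6% of the genes kept were higher, 0 passed 3-fold in either direction, and the median log2 ratio was 0.45. Their summed level was lower with clodronate, at 11426 and 9226 RPKM, since B2m makes up most of it. The 3 lower ones were all chains. B2m, beta-2 microglobulin, had 10339 and 8188 RPKM, H2-K1 had 762 and 588 RPKM and H2-M3 had 9.80 and 9.60 RPKM. The chains H2-T23, with 27.5 and 44.8 RPKM, and H2-Q7, with 42.5 and 56.7 RPKM, were higher. The other higher genes were Tap1, Tap2, Tapbp, Psmb8, Psmb9 and Nlrc5, which encode no chains, and the median of 0.45 rests largely on them. Nlrc5, the class I counterpart of Ciita, had 16.0 RPKM with vehicle and 22.8 RPKM with clodronate, a log2 ratio of 0.49 where Ciita had -0.33.

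Genes that act on class II expression or on its products were described from lists with earlier results of these libraries known, and 0 genes of the following 6 lists passed 3-fold in either direction, where 2.32% of the genes kept were lower and 2.86% higher by that much. The RPKM of Socs1 was 4.42-fold higher with nothing added, and it alone of these lists passed 3-fold with a pseudocount of 0.1 RPKM. Of the 7 promoter-binding partners of Ciita 5 were lower, where 48.4% of the genes kept were, and their median log2 ratio was -0.29. Rfxap, a subunit of RFX, had 7.96 and 3.31 RPKM, and Nfyc, a subunit of NF-Y, had 30.7 and 18.7 RPKM, whereas Rfxank, the remaining RFX subunit beside Rfx5, had 3.64 and 4.85 RPKM. Of the 7 genes that carry the interferon gamma signal 4 were lower and 3 higher, with a median of -0.084. Socs1, a feedback inhibitor of the pathway, had 0.714 and 3.15 RPKM, while the kinase gene Jak2 had 19.9 and 11.8 RPKM. Thus neither list moved in 1 direction throughout.

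Of the 9 genes of antigen processing 5 were lower and 4 higher, where 48.4% of the genes kept were lower. Their median log2 ratio was -0.094. Ctss, cathepsin S, the protease that makes the last cut of the invariant chain, had 2357 RPKM with vehicle and 1420 RPKM with clodronate, the lowest log2 ratio of this list at -0.73. Lgmn, an asparagine-specific endopeptidase, had 1005 and 1355 RPKM, and Ctsl, cathepsin L, had 150 and 208 RPKM. Ifi30, a thiol reductase that opens disulfide bonds of antigens, had 1101 and 945 RPKM. The proteases of the endosome therefore lay on both sides.

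Of the 3 genes of class II turnover 2 were lower and 1 higher, where 48.4% of the genes kept were lower, and their median log2 ratio was -0.35. March8 was the higher one, with 12.8 and 14.4 RPKM. March1, a ubiquitin ligase that removes class II from the surface, had 17.5 and 13.5 RPKM. Cd83, which opposes that ligase, had 246 and 148 RPKM. Of the 9 regulators above 1 RPKM 7 were higher, where 51.6% of the genes kept were, and their median log2 ratio was 0.58. Il10, a cytokine that lowers class II on the macrophage surface, had 17.2 RPKM with vehicle and 42.8 RPKM with clodronate, and Tgfb1 had 112 and 167 RPKM. Prdm1, a repressor of Ciita, had 11.1 and 6.91 RPKM. Among genes that promote class II expression, Il4ra had 60.7 and 98.2 RPKM, Spi1 208 and 333 RPKM and Irf4 4.62 and 8.06 RPKM. Il10ra, the receptor chain for Il10, had 95.6 and 64.7 RPKM. Of the 7 genes listed under T cell costimulation 6 were lower, where 48.4% of the genes kept were, and the median of the list was -0.37. The list mixes functions, since Cd274 and Pdcd1lg2 encode ligands that mainly restrain T cells and Icam1 encodes an adhesion molecule. All of these were lower, Cd274 with 45.8 and 32.7 RPKM, Pdcd1lg2 with 2.94 and 2.05 RPKM and Icam1 with 87.5 and 69.6 RPKM. The lower ones also included Cd80 with 58.5 and 41.8 RPKM and Cd86 with 72.5 and 56.9 RPKM, while Cd40 had a log2 ratio of 0.046.

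**Figure D5:**
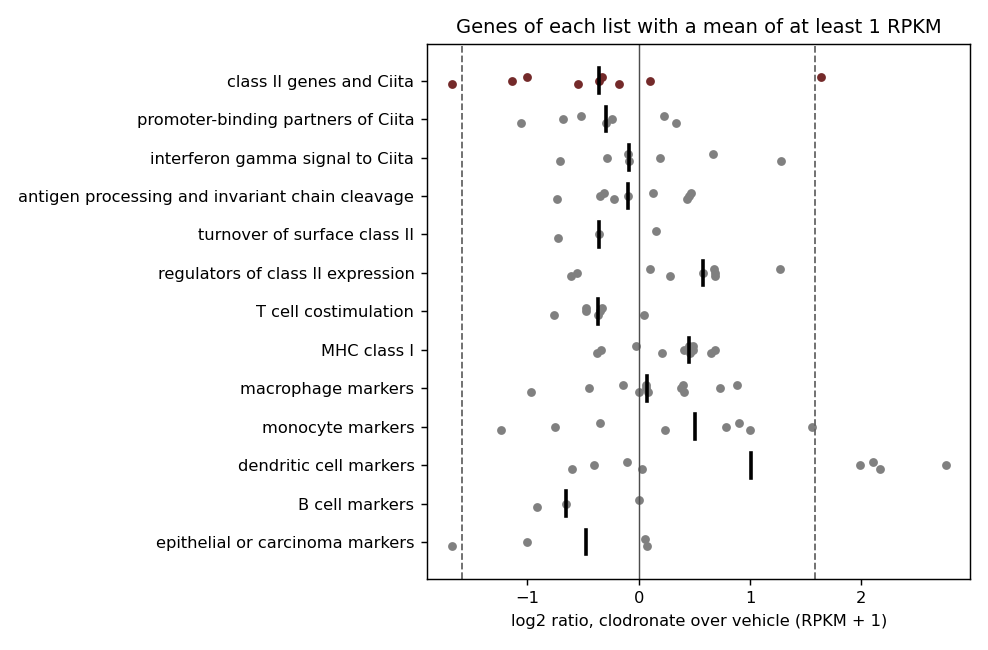
Log2 ratio of clodronate over vehicle (RPKM + 1) of every list gene that averaged 1 RPKM or more, 1 point per gene, with a black bar at the median of the list and dashed lines at 3-fold. The median of the class II genes is at -0.36 and that of the macrophage markers at 0.078, while the dendritic cell markers spread from -0.60 to 2.76.

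Other cells that carry class II were looked for by their markers. Of the 12 dendritic cell markers 8 passed the minimum level, 5 of them higher and 3 lower, where 51.6% of the genes kept were higher. Where 2.86% of the genes kept were at least 3-fold higher, 4 of the markers were. These were Cd209a with 1.25 and 8.68 RPKM, Clec10a with 14.7 and 61.2 RPKM, and Batf3 and Kmo, both listed at 0 in the vehicle library with 5.77 and 3.49 RPKM in the clodronate library. Batf3 and Kmo passed the minimum level only through the clodronate library and so could not pass without being higher, and nothing is read from the count. The median log2 ratio was 1.01 over the 8 markers that passed and 0.14 over all 12. The summed level of all 12 markers was 63.0 RPKM with vehicle and 116 RPKM with clodronate, and without Clec10a, a choice made after seeing the data, that of the other 11 was 48.3 and 54.9 RPKM. The 3 lower markers were Itgax with 21.2 and 19.6 RPKM, Cd24a with 20.3 and 13.1 RPKM, and Ccr7 with 3.36 and 2.31 RPKM. Flt3, Zbtb46, Xcr1, Clec9a and Siglech did not exceed 1.09 RPKM in either library, whereas Batf3 had 5.77 RPKM with clodronate. Clec10a is also made by macrophages. Of the 10 B cell markers 3 passed the minimum level, with a summed level over the list of 8.82 and 6.21 RPKM, and Pax5 and Cr2 were among those listed at 0 in both. The part of these cells in the values of the class II genes was not tested.

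Of the 8 monocyte markers 5 were higher and 3 lower, where 51.6% of the genes kept were higher. Their summed level was 290.2 RPKM with vehicle and 434 RPKM with clodronate. Most of this rise came from F13a1, with 132 and 247 RPKM, and Plac8, with 45.4 and 91.8 RPKM, so the sum does not describe the list as a whole. Ly6c2, a marker of monocytes newly arrived from blood, which carry little class II, had a log2 ratio of 0.78, whereas Ccr2 had 48.5 and 37.8 RPKM and Chil3 36.4 and 14.8 RPKM. The epithelial or carcinoma markers, a check for tumor cells, summed to 16.9 and 11.0 RPKM, and Epcam, Krt19 and Cldn4 were listed at 0 in both. The part of monocytes in the lower class II values was not tested.

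C1q, whose 3 chains macrophages make together, gives 1 example of the spread among genes of a protein complex in these libraries. C1qa had 1185 and 1563 RPKM, C1qb had 3372 and 3384 RPKM and C1qc had 3984 and 2043 RPKM. Their log2 ratios spanned 1.36, from -0.96 to 0.40. The difference was 0.54 between H2-Aa and H2-Ab1 and 1.78 between H2-Aa and Cd74. A range over 3 genes tends to be wider than the difference of 1 pair, so these values are not on the same footing.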

How the data were processed

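The authors deposited RPKM values for 23170 gene loci in each of 2 libraries, vehicle and clodronate, 1 per condition. The submitters' processing notes name CASAVA 1.8.2, TopHat2 2.0.9, Bowtie 0.12.9, Cufflinks 2.2.1 and Cuffdiff and the build mm9, without their order or the annotation release. Symbols of 26 loci had turned into numbers and were restored from their RefSeq accessions. Lines of the same symbol were summed, and 10982 genes that averaged 1 RPKM or more were kept. RPKM are not counts, so no count model was used, and with 1 library per condition no p-value was computed. The log2 ratio carries a pseudocount of 1 RPKM, which understates changes of low genes, and 3-fold was the main threshold.

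Estimated reads rest on the steps of low values. Among 260 loci with 1 RefSeq transcript and under 0.3 RPKM in both libraries, 48 shared a ratio of 1.23 within 0.01%, taken as the ratio of what 1 read is worth. Its absolute worth was fitted with the lengths of GENCODE M21 transcripts (GRCm38) on 183 loci of about 1 read. With it, 71.1% of the low vehicle and 71.7% of the low clodronate values came within 0.1 of a whole read. Where RPKM ratios matched a ratio of small whole numbers, the nearest such pair of counts is given. Intervals treat reads as independent, which PCR copies are not. This estimate was added after seeing the data, as were the promoter motifs.

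The members and lists were chosen with earlier results of these data known. Any member or list gene could be named, and also the 3 genes of at least 100 RPKM nearest to H2-Aa in log2 ratio. H2-D1 and H2-Ea were found under no symbol, and Adgre1 was listed under its older symbol Emr1. The alternatives tried were leaving out the filter, raising it to 5 RPKM, a pseudocount of 0.1, centring on all genes or on macrophage markers, upper-quartile scaling, the highest line of a symbol, 2-fold, and a correction for GC content and length in 10 bins each (lengths found for 98.7% of genes). Some genes of the lists are not reported here by name. The steps were tested on simulated data. Python 3.11.15, numpy 2.4.6, pandas 2.3.3, scipy 1.17.1 and matplotlib 3.10.9 were used.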

Additional observations from a re-analysis of the deposited data

How the results depend on the processing

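No paired analysis was possible because vehicle and clodronate were each measured in 1 library. H2-Aa was the single gene of the family at least 3-fold lower under every alternative that kept this threshold, with log2 ratios from -1.75 to -1.59, the last with GC content and length corrected, just past 3-fold. At 2-fold the number lower was 3. The number at least 3-fold higher, H2-Oa alone, was 0 when the filter was raised to 5 RPKM, which removes it by construction, and 0 when ratios were centred on the macrophage markers. The median log2 ratio of the family, -0.36 in the report, was -0.364 with a pseudocount of 0.1, -0.344 with no filter, -0.380 when centred on all genes, -0.422 with upper-quartile scaling, -0.439 when centred on the macrophage markers and -0.482 with GC content and length corrected. The cause of these shifts was not tested beyond the construction of each setting. No member changed sign under any of the alternatives run. By construction, however, the filters, the line chosen for a symbol, the fold threshold and the pseudocount could not change a sign. H2-Eb2, below the filter, was covered by 1 alternative, with an unchanged value. Cd74 ranged from 0.013 to 0.10, Ciita from -0.61 to -0.33 and H2-Oa from 1.55 to 4.46. The median of the dendritic cell markers was 1.01 over 8 genes, 0.14 over all 12 with no filter and -0.11 over the 3 that averaged 5 RPKM or more. With GC content and length corrected, Ciita was below H2-Eb1 and H2-DMa, at -0.61 against -0.48 and -0.47. Depth limits H2-Eb2, H2-Oa and H2-DMb2, which rest on at most 70 estimated reads per library.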
